A study of Mus musculus with 16 samples.

Results

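Complex I of the respiratory chain was followed through its nuclear genes in aortas of mice infused with angiotensin II (Ang II) or saline. The members were the protein-coding genes of the deposited FPKM table whose symbols begin with Ndufa, Ndufb, Ndufc, Ndufs, Ndufv, Ndufab or Ndufaf followed by a number. This gave 46 of the 54532 genes listed, and 2 of them (Ndufa4 and Ndufa4l2) carry the name for historical reasons. The Ang II group held 8 libraries from male C57BL/6j Apoe-/- mice of 8 to 12 weeks given 1000 ng/kg/min by osmotic pump for 7 days. The saline group held 8 libraries from Apoe-/- males of the same strain and age range given saline by the same kind of pump for 7 days. Both groups thus lack Apoe, the apolipoprotein whose loss raises plasma cholesterol, although the library names call them WT, and no Apoe-expressing mice were in the comparison. The adventitia had been removed, and the series title names vascular smooth muscle as the cell of interest. Each library is bulk tissue of mixed cells, and markers of adipocytes were still found, at levels that differed between libraries (given below).

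Complex I is the entry point of the respiratory chain. It oxidises NADH in the mitochondrial matrix, passes the electrons along a row of iron-sulfur clusters to ubiquinone, and uses the energy to pump protons across the inner membrane. Its core subunits carry these steps, its accessory subunits stabilise the enzyme, and its assembly factors help to build it without staying in the finished complex. The core subunits of the matrix arm are encoded in the nucleus, whereas those of the membrane arm are the Nd proteins of the mitochondrial genome, so both genomes must be expressed to make the enzyme. In the arterial wall it is one source of ATP and of reactive oxygen species in smooth muscle. The roles given here for single proteins come from work on the human, bovine and mouse enzyme.

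The starts of these genes are shown first, because nuclear respiratory genes share promoter motifs and the members below differed in how far they moved. RefSeq promoter windows (GRCm38.p6, 250 bases before to 50 bases after the gene start) were found for 40 of the 46 genes. The motif of NRF1, a factor known for activating respiratory genes, was searched as GCGCA, any base and GCGC on both strands and stood in 9 of these 40 windows, against 5.19% of the windows of 27025 genes. The motif of YY1, searched as AAGATGGCG on both strands, stood in 6 of the 40, against 1.64%. The motif of GABPA, CCGGAAGT, stood in 1 of the 40 against 4.31%, and that of ESRRA, TCAAGGTCA, in 0 of the 40 against 0.466%. The NRF1 matches below are from 3 genes that passed the test as lower and 1 that did not, each printed 5′ to 3′ on the gene's strand, with the matching letters in capitals. In Ndufa5 the capitals hold the motif as spelled above, in Ndufs6 and Ndufa6 they hold its reverse complement (GCGC, any base and TGCGC) because the motif lies on the opposite strand, and in Ndufa11 it reads the same on both.
Ndufs6, chr13:73328479-73328508, minus strand: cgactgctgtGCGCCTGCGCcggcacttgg
Ndufa5, chr6:24527697-24527726, minus strand: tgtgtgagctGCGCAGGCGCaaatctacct
Ndufa6, chr15:82354249-82354278, minus strand: ccgtggcaccGCGCGTGCGCacgctgaagg
Ndufa11, chr17:56717692-56717721, plus strand: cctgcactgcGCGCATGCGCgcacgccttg
The YY1 letters lie just past the gene start, and in 5 of the 6 genes (all but Ndufaf8) the ATG inside them is the annotated start codon, so the same letters also encode the first residues of the protein. They are printed for Ndufs7, the member with the lowest log2 fold change, for Ndufs6 and Ndufaf8, and for Ndufs4, one of the 2 members whose log2 fold change was nearest to 0.
Ndufs7, chr10:80249463-80249491, plus strand: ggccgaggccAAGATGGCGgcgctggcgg
Ndufs6, chr13:73328433-73328459, minus strand: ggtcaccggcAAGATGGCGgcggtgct
Ndufaf8, chr11:120098934-120098962, plus strand: ggcagggcccAAGATGGCGgcgccctcga
Ndufs4, chr13:114388045-114388069, minus strand: tgcctacaggAAGATGGCGgcggtc
Of the 9 genes with the NRF1 letters 6 passed the test as lower, against 21 of the 31 without them. Of the 6 with the YY1 letters 4 passed, against 23 of the 34 without them. Genes with the same letters thus stood at both ends of the range, and a match here is a description of the window only.

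The 16 libraries held between 14606864 and 19988730 reads counted on genes, a depth recovered from the FPKM values themselves (95.8% to 96.3% of the values above 0 came out within 0.02 of a whole read). All 46 genes passed the filter of a mean of 0.5 FPKM over the 16 libraries and were tested together with 15007 genes in all. On the first principal component of the tested genes, with 46.9% of the variance, Saline 8 (108.8) and Saline 7 (67.6) had the highest scores, Saline 2 (47.5) came next, and the remaining libraries lay between -37.1 and 9.47. In Saline 7 and Saline 8 genes of high GC content were raised relative to the mean of all libraries (Spearman 0.389 for Saline 7 and 0.343 for Saline 8, while the remaining libraries ranged over -0.41 to 0.18). Saline 7 was also the highest of the 16 libraries for 31 of the 46 members and Saline 8 for 10, so the counts are given with and without the pair, and with Saline 2 left out as well. Smooth muscle markers were abundant throughout, with a summed level of 6571 to 11057 FPKM in Ang II and 9323 to 15858 FPKM in saline aortas.

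The comparison asks how far complex I transcripts moved after 7 days of Ang II, at the stage the study chose to examine. Transcripts of 30 of the 46 genes fell with Ang II and none rose, which is 65.2% of the members, beside 24.9% of all tested genes called lower and 9.54% called higher (limma on log2(FPKM + 1), Benjamini-Hochberg adjusted p under 0.05 over all tested genes). All 46 log2 fold changes were below 0, a sign that 60.6% of all tested genes shared, and 42 lay below the median of all tested genes. The median log2 fold change was -0.44 over the members, equal to 0.739 of the saline level, against -0.12 over all tested genes. The difference between the 2 medians was -0.32. Single genes lay between -1.09 and -0.04, and 1 gene, Ndufs7, was lower by more than 2-fold. Its log2 fold change was -0.98 after centring each library on the median of all tested genes and -0.69 with trends over GC content and length removed, and under neither setting was any member lower by more than 2-fold. In 7 genes (among them Ndufs7, Ndufv1, Ndufb10, Ndufa6, Ndufb8 and Ndufaf7) every Ang II library lay below every saline library, beside 5.62% of all tested genes. In bulk tissue, fewer cells that express these genes and less RNA of them per cell cannot be told apart.

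Of the 30 calls 29 held in all 16 fits that left out 1 library each. The count of 30 depended on how libraries were put on one scale, and the split over all tested genes was 3741 lower and 1431 higher as deposited but 2146 lower and 2245 higher after centring. The members' count was 19 after centring each library on the median of all tested genes (14.3% of all tested genes lower), 19 after quantile normalization (15.8%), 16 after median ratio scaling (14.1%), and 18 with trends over GC content and length removed (16.9%). Without Saline 7 and Saline 8 it was 28 (26.6%), and with the remaining libraries also centred it was 12 (12.3%), with a median of -0.21. The 2 calls lost without the pair were those of Ndufc1 (log2 fold change -0.39, limma adjusted p = 0.0598) and Ndufb5 (-0.25, limma adjusted p = 0.0707). With Saline 2 left out as well the count was 27 (26.3%), with a median of -0.36. The calls of Ndufc1, Ndufb5, Ndufa13, Ndufaf5 and Ndufab1 were then lost, and Ndufs1 and Ndufa9 were called lower. The difference between the median of the members and that of all tested genes was -0.32 both as deposited and after centring. It was -0.21 without Saline 7 and Saline 8, -0.20 with Saline 2 left out as well, and -0.21 with GC and length trends removed. With GC and length trends removed the log2 fold change was over 1.5 times smaller for 18 of the 30 called genes, among them Ndufs7, Ndufs6 (-0.48), Ndufb9 (-0.49), Ndufb10 (-0.45) and Ndufaf8 (-0.36). Under all 36 settings tried, 11 members kept the call (among them Ndufs7, Ndufv1, Ndufs3, Ndufa5, Ndufa6, Ndufb3, Ndufb9, Ndufb10, Ndufaf7 and Ndufaf8), beside 8.86% of all tested genes. These 11 include core, accessory and assembly genes.

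**Figure D1:**
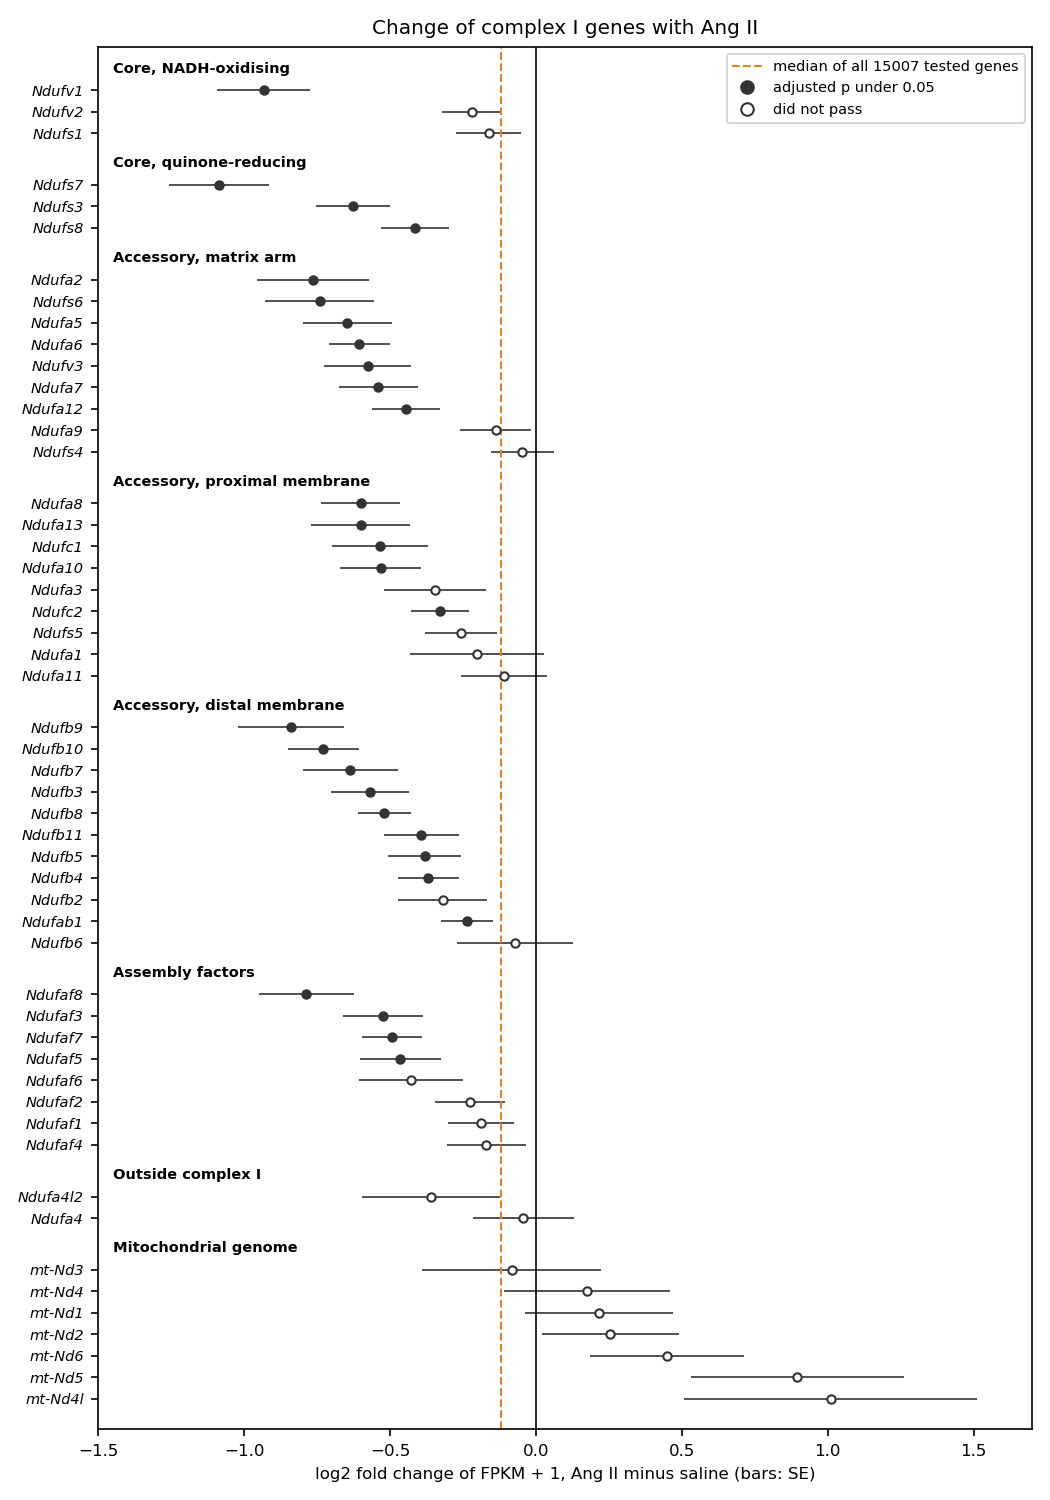
Log2 fold change of FPKM + 1, Ang II minus saline, for nuclear genes of the group arranged by their place in the enzyme and for the 7 mitochondrial mt-Nd genes. Points are estimates over 8 libraries per group, bars are standard errors, filled points passed the test, and the dashed line is the median of all tested genes at -0.12. The nuclear genes run from -1.09 to -0.04, and 6 of the 7 mt-Nd genes lie above 0.

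The NADH-oxidising end of the enzyme is made of 3 core subunits, and 1 of them fell. Ndufv1 (chr19:4007497-4012806 on GRCm38, minus strand) encodes the subunit that binds NADH and holds the flavin. It had 65.2, 69.4 and 90.01 FPKM as lowest, median and highest value in Ang II aortas, against 99.1, 127 and 269 FPKM in saline aortas. The groups did not overlap, and the highest saline value was that of Saline 8. Means were 72.5 ± 8.08 FPKM in Ang II and 145 ± 53.9 FPKM in saline aortas (SD, n = 8 each), with a log2 fold change of -0.93 (SE 0.16, limma adjusted p = 0.00033). Ndufv2, which carries an iron-sulfur cluster next to the flavin subunit, had 58.5, 69.2 and 85.3 FPKM with Ang II against 65.9, 80.3 and 104 FPKM with saline. Ndufs1, the largest core subunit of the matrix arm, had 30.5, 36.7 and 46.9 FPKM with Ang II against 33.9, 42.5 and 55.7 FPKM with saline. The groups overlapped for both genes, and neither passed the test (Ndufv2 log2 fold change -0.22, SE 0.10, limma adjusted p = 0.11, and Ndufs1 -0.16, SE 0.11, limma adjusted p = 0.27), although Ndufs1 passed without Saline 2, Saline 7 and Saline 8 (log2 fold change -0.32, limma adjusted p = 0.0205).

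The core subunits Ndufs7, Ndufs3 and Ndufs8 of the quinone-reducing part fell. Ndufs7 (chr10:80249121-80256794, plus strand), which holds the last iron-sulfur cluster before ubiquinone, had 63.0, 71.5 and 93.7 FPKM with Ang II against 102, 142 and 265 FPKM with saline. No Ang II library reached the lowest saline one, and Saline 7 and Saline 8 were the highest. Means were 73.6 ± 10.02 FPKM in Ang II and 164 ± 58.6 FPKM in saline aortas (SD, n = 8 each; log2 fold change -1.09, SE 0.17, limma adjusted p = 0.000157). Without Saline 7 and Saline 8 the log2 fold change was -0.85 (limma adjusted p = 3.71e-05).

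Ndufs3 (chr2:90894634-90904827, minus strand) is a core subunit without an iron-sulfur cluster. It had 53.7, 63.7 and 81.3 FPKM with Ang II against 74.7, 97.1 and 142 FPKM with saline, and 7 of the 8 Ang II libraries lay below every saline one (log2 fold change -0.63, SE 0.13, limma adjusted p = 0.00125). Ndufs8 (chr19:3908870-3912717, minus strand), which carries the clusters leading to Ndufs7, had 33.7, 40.4 and 54.2 FPKM with Ang II against 43.7, 54.0 and 74.9 FPKM with saline. Its groups overlapped, with 5 Ang II libraries below every saline one (log2 fold change -0.41, SE 0.12, limma adjusted p = 0.0116). The call for Ndufs8 was lost after median ratio scaling, after centring, and with GC and length trends removed, where its log2 fold change was -0.07.

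Because core subunits are present in the finished enzyme in equal number, their transcripts were also set against each other within each library, which cancels any scaling of the library. There were 6 such ratios (3 among Ndufv1, Ndufv2 and Ndufs1, and 3 among Ndufs7, Ndufs3 and Ndufs8), a comparison chosen after the values of the single genes had been seen. Ndufv1 over Ndufv2 was 0.856, 1.00 and 1.49 as lowest, median and highest FPKM ratio in Ang II aortas, against 1.45, 1.5 and 3.20 in saline aortas. Only 1 Ang II library overlapped the saline range, and the mean log2 ratio differed by -0.72 (SE 0.17, exact two-sided permutation test, Benjamini-Hochberg adjusted over 6 ratios p = 0.000932). Ndufv1 over Ndufs1 had medians of 1.89 in Ang II and 2.90 in saline aortas (log2 difference -0.78, SE 0.25, exact permutation adjusted p = 0.00559). Without Saline 2, Saline 6 and Saline 8 that ratio was close to the threshold (exact permutation adjusted p = 0.0490), and without Saline 2, Saline 7 and Saline 8 it did not pass (log2 difference -0.36, exact permutation adjusted p = 0.0559). With GC and length trends removed the 2 Ndufv1 ratios had log2 differences of -0.45 and -0.47, over 1.5 times smaller, and both passed (exact permutation adjusted p = 0.00373 and 0.00746). The GC content is 56.4% for Ndufv1, 45.3% for Ndufv2 and 45.9% for Ndufs1. Between the other two, Ndufv2 over Ndufs1, the medians were 1.90 in Ang II and 1.96 in saline aortas, and the log2 difference was -0.06 (SE 0.14, exact permutation adjusted p = 0.71).

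Ndufs7 was also lower relative to both Ndufs3 and Ndufs8. Its ratio to Ndufs3 did not overlap between the groups (medians 1.12 with Ang II and 1.53 with saline, log2 difference -0.46, SE 0.07, exact permutation adjusted p = 0.000932), and its ratio to Ndufs8 had medians of 1.74 with Ang II and 2.72 with saline (log2 difference -0.67, SE 0.13, exact permutation adjusted p = 0.000932). Before adjustment the smallest p that this design allows is 0.000155. With GC and length trends removed these log2 differences were -0.24 and -0.62, and both passed. Ndufs3 over Ndufs8 had a log2 difference of -0.21 (SE 0.12, exact permutation adjusted p = 0.109). Every ratio that passed had Ndufv1 or Ndufs7 as its numerator. Ndufs7 and Ndufv1 had the lowest log2 fold changes of all members (-1.09 and -0.93), which were known when the ratios were chosen. The p-values were adjusted over these ratios only, so they cannot decide whether neighbouring subunits differ in general. The log2 differences describe how far these transcripts moved relative to each other within the libraries.

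**Figure D2:**
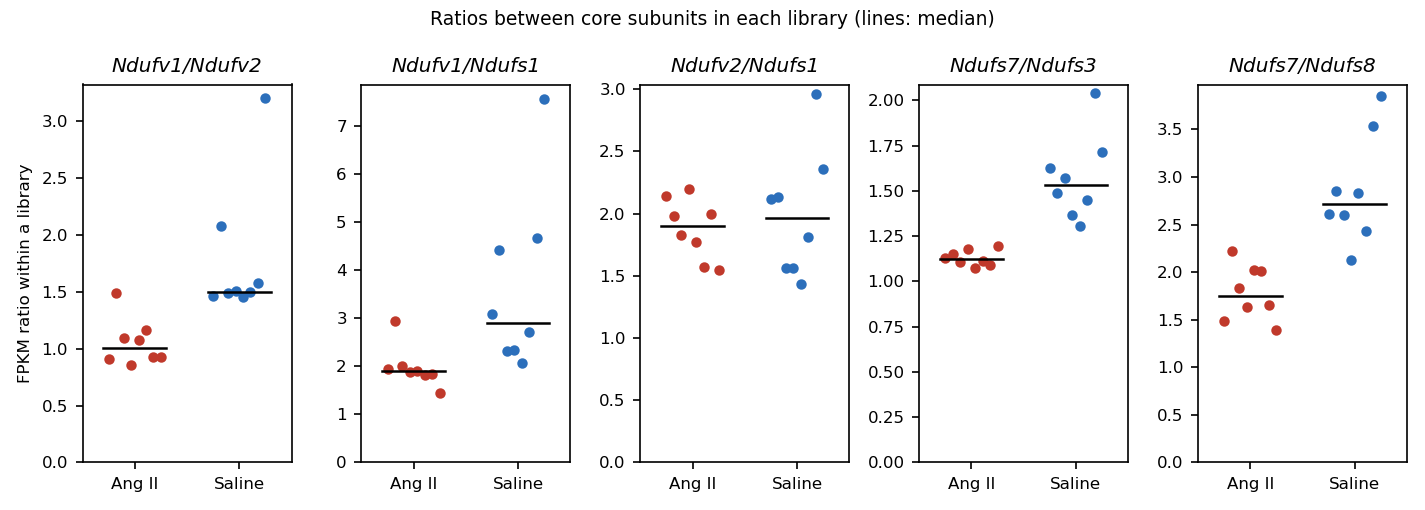
FPKM ratios between core subunits within each library, with Ang II left of saline, 8 libraries per group, and lines at the group medians. Ndufv1 over Ndufv2 has medians of 1.00 with Ang II and 1.5 with saline, and Ndufs7 over Ndufs8 has medians of 1.74 with Ang II and 2.72 with saline, whereas Ndufv2 over Ndufs1 overlaps widely.

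Among the 9 accessory subunits of the matrix arm 7 fell, beside 24.9% of all tested genes lower. The median log2 fold change of the 9 was -0.58. After centring 6 of them were lower, after median ratio scaling 4, and with GC and length trends removed 5. Ndufa2, a small subunit with a thioredoxin-like fold, had 76.5, 124 and 170.4 FPKM with Ang II against 142, 214 and 323 FPKM with saline (log2 fold change -0.76, SE 0.19, limma adjusted p = 0.00593). Ndufs6 (chr13:73319838-73328542, minus strand), a zinc-binding subunit added late in assembly, had 33.9, 72.4 and 92.4 FPKM with Ang II against 87.4, 105 and 162 FPKM with saline (log2 fold change -0.74, SE 0.19, limma adjusted p = 0.0059). In both genes the groups overlapped, with 5 and 7 Ang II libraries below every saline one. Ndufa5 (chr6:24518666-24528013, minus strand), which packs against the quinone-reducing core, had 61.8, 77.5 and 112 FPKM with Ang II against 98.6, 125 and 167 FPKM with saline (log2 fold change -0.65, SE 0.15, limma adjusted p = 0.0041). Ndufa6, an LYR-motif subunit that docks the acyl carrier protein, did not overlap between groups (98.2, 113 and 126 FPKM with Ang II, 141, 164 and 211 FPKM with saline, log2 fold change -0.61). Ndufv3, Ndufa7 and Ndufa12 fell by 0.58, 0.54 and 0.45 on the log2 scale. Each of them lost the call after median ratio scaling. Ndufa12 also lost it after centring, and Ndufa7 and Ndufa12 lost it with GC and length trends removed.

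The other 2 genes of this arm did not pass. Ndufs4, whose loss causes a Leigh-like brain disease in mice, had 30.4, 34.8 and 46 FPKM with Ang II against 30.1, 35.4 and 47.3 FPKM with saline, so the groups covered the same range (log2 fold change -0.05, SE 0.11, limma adjusted p = 0.761). Ndufa9, which holds a tightly bound NADPH near the quinone site, had 33.2, 38.1 and 42.4 FPKM with Ang II against 30.1, 42.0 and 52.1 FPKM with saline (log2 fold change -0.14, SE 0.12, limma adjusted p = 0.396), and it was called lower without Saline 2, Saline 7 and Saline 8 (log2 fold change -0.31, limma adjusted p = 0.0147).

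**Figure D3:**
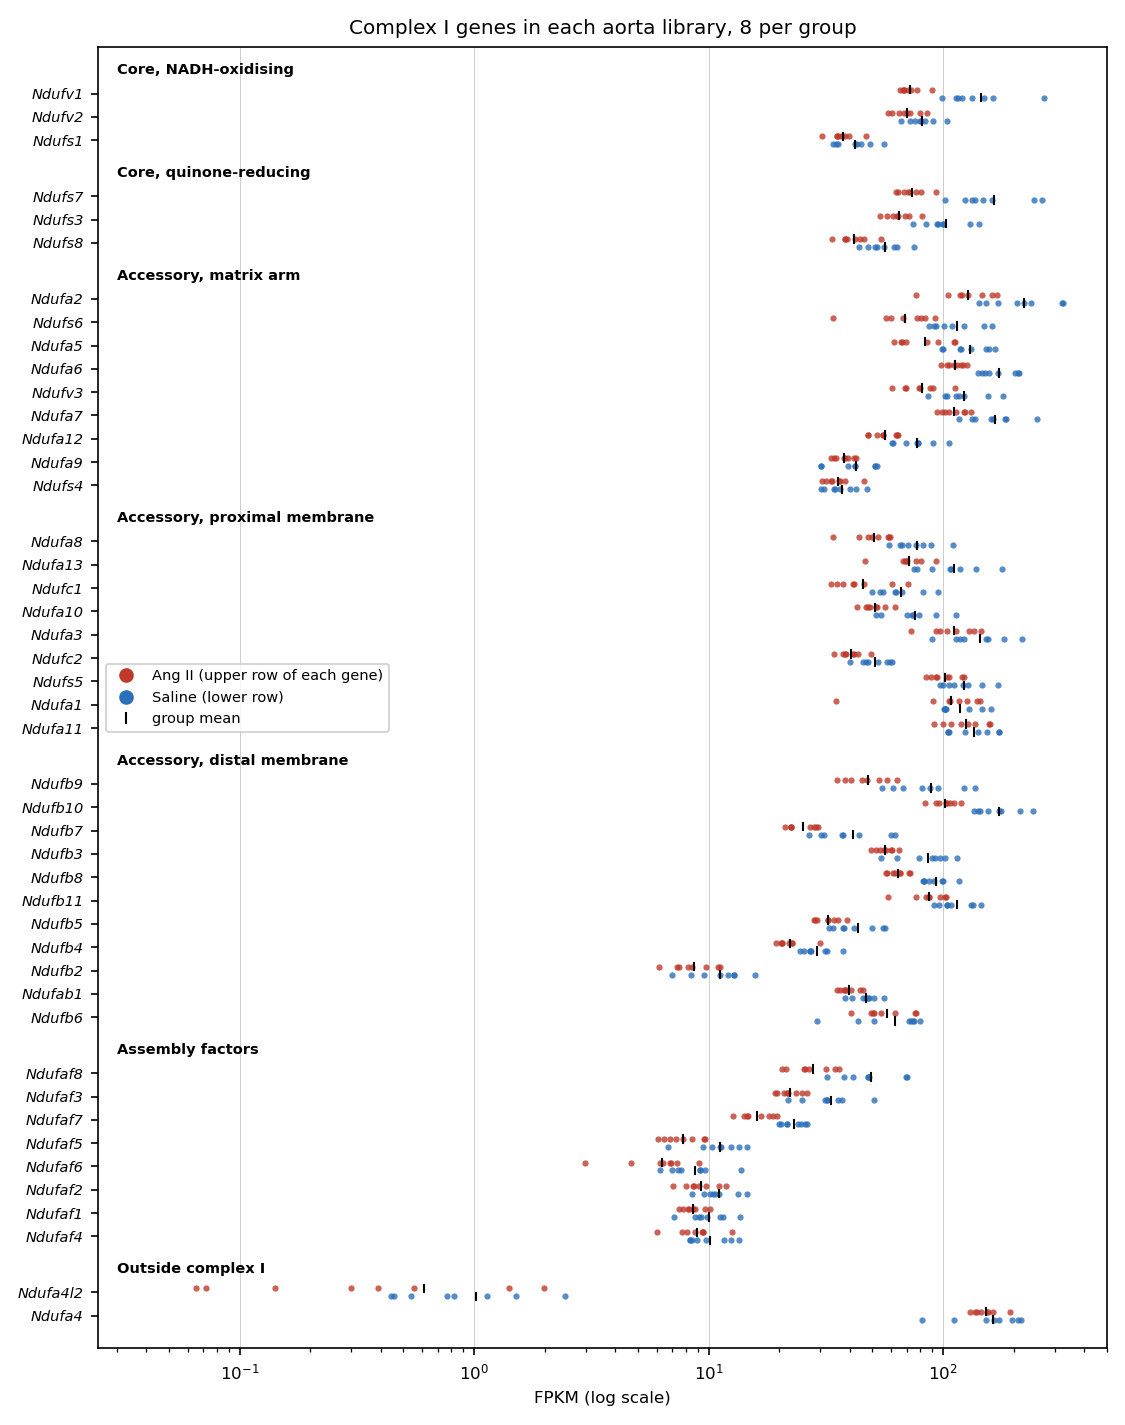
FPKM on a log scale of genes of the group in every library, Ang II in the upper and saline in the lower row of each gene, with a vertical line at each group mean (n = 8 each). Ndufs7 and Ndufv1 are separated between groups, at 63.0 to 93.7 and 65.2 to 90.01 FPKM with Ang II, while Ndufs4 and Ndufa9 lie over each other, and Ndufa4l2 is the one member near or below 1 FPKM.

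In the membrane arm 5 of the 9 proximal and 9 of the 11 distal accessory genes fell, with median log2 fold changes of -0.35 and -0.39, beside 24.9% of all tested genes lower. After centring 2 proximal and 5 distal genes were lower, after median ratio scaling 1 and 5, and with GC and length trends removed 3 and 3. Ndufa13, Ndufc1, Ndufc2, Ndufb4, Ndufb5, Ndufb11 and Ndufab1 each lost the call after centring and after median ratio scaling. Ndufa10 kept the call after centring and lost it after median ratio scaling (limma adjusted p = 0.0577). The proximal genes that fell were Ndufa8, Ndufa13 (also called GRIM-19), Ndufc1, Ndufa10 and Ndufc2, from -0.60 for Ndufa8 to -0.33 for Ndufc2. Ndufa3, Ndufs5, Ndufa1 and Ndufa11 did not pass. Ndufa11, which sits beside the membrane core subunits near the contact with complex III, had 91.3, 123 and 159 FPKM with Ang II against 105, 132 and 174 FPKM with saline (log2 fold change -0.11, SE 0.15, limma adjusted p = 0.583). With GC and length trends removed it was the only member called higher (log2 fold change 0.30, limma adjusted p = 0.0472), and its GC content of 58.3% is among the highest of the members.

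On the distal side Ndufb9, an LYR-motif subunit, had 35.3, 46.2 and 63.5 FPKM with Ang II against 54.8, 84.9 and 136 FPKM with saline (log2 fold change -0.84, SE 0.18, limma adjusted p = 0.00206). The groups overlapped in 2 Ang II libraries, and 19.5% of its exon bases are shared with another annotated gene, Gm49356. Ndufb10 (chr17:24722060-24724478, minus strand), a disulfide-bonded subunit on the intermembrane side, had 84.0, 103 and 119.6 FPKM with Ang II against 135, 165 and 241 FPKM with saline. It did not overlap between the groups (log2 fold change -0.73, SE 0.12, limma adjusted p = 0.000266). Ndufb8, a membrane subunit often used on blots to follow the assembled enzyme, did not overlap either (57.2, 64.0 and 72.1 FPKM with Ang II against 81.8, 89.1 and 117 FPKM with saline, log2 fold change -0.52), although its call was lost with GC and length trends removed. Ndufb3, Ndufb4, Ndufb5, Ndufb7 and Ndufb11 fell by 0.37 to 0.64 on the log2 scale. Ndufab1, the mitochondrial acyl carrier protein that also serves fatty acid and lipoate synthesis, fell by 0.24 at an adjusted p of 0.0493 (limma), and when 1 library was left out this call held only without Ang II 1, Ang II 8, Saline 4 or Saline 8.

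Ndufb2 and Ndufb6 did not pass, although Ndufb2, like Ndufa3 of the proximal part, passed when Saline 5 was left out. Ndufb6 had 40.6, 52.4 and 76.5 FPKM with Ang II against 28.9, 72.1 and 79.99 FPKM with saline (log2 fold change -0.07, SE 0.20, limma adjusted p = 0.804). Its exons overlap those of Smim27 over 39.0% of their bases, so its reads cannot be fully told from those of that gene. The distal subunit Ndufb1 was not among the 46, because the table lists it as Ndufb1-ps with a non-coding biotype. That entry had 49.9 ± 11.5 FPKM in Ang II and 52.0 ± 12.0 FPKM in saline aortas (SD, n = 8 each, limma adjusted p = 0.796).

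Of the 8 assembly factors named Ndufaf, 4 fell, beside 24.9% of all tested genes lower. After centring 2 of the 8 were lower (14.3% of all tested genes), and after median ratio scaling 2 (14.1%). With GC and length trends removed 3 of the 8 were lower (16.9%). Ndufaf8 (chr11:120098928-120100705, plus strand), which binds and stabilises Ndufaf5, had 20.5, 26.3 and 36.1 FPKM with Ang II against 32.1, 48.0 and 69.9 FPKM with saline (log2 fold change -0.79, SE 0.16, limma adjusted p = 0.00161). Ndufaf5 (chr2:140170649-140203689, plus strand), which hydroxylates an arginine of the Ndufs7 protein, had 6.11, 7.51 and 9.66 FPKM with Ang II against 6.73, 11.3 and 14.6 FPKM with saline (log2 fold change -0.47, SE 0.14, limma adjusted p = 0.0159). Both overlapped between the groups, Ndufaf8 in 2 and Ndufaf5 in 6 Ang II libraries. Ndufaf7 (chr17:78937136-78948052, plus strand), a methyltransferase of complex I assembly, had 12.7, 15.7 and 19.6 FPKM with Ang II against 19.97, 22.9 and 26.4 FPKM with saline. It did not overlap between the groups, and the spread was alike, at 2.46 FPKM (SD, n = 8) in the Ang II group and 2.48 FPKM (SD, n = 8) in the saline group (log2 fold change -0.49, SE 0.10, limma adjusted p = 0.00153). Transcripts of Ndufs7, the protein that Ndufaf5 modifies, had fallen as well.

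Ndufaf3, which together with Ndufaf4 accompanies the quinone-reducing module during assembly, had 19.2, 21.7 and 26.4 FPKM with Ang II against 21.8, 32.0 and 50.5 FPKM with saline (log2 fold change -0.52, SE 0.14, limma adjusted p = 0.00739). Its partner Ndufaf4 had 6.05, 9.06 and 12.6 FPKM with Ang II against 8.31, 9.33 and 13.5 FPKM with saline and did not pass (log2 fold change -0.17, SE 0.14, limma adjusted p = 0.345). The calls of Ndufaf3 and Ndufaf5 were lost after median ratio scaling and after centring. Ndufaf1, which works on the membrane arm together with Ecsit and Acad9, had 7.46, 8.42 and 10.2 FPKM with Ang II against 7.13, 9.56 and 13.6 FPKM with saline (log2 fold change -0.19, limma adjusted p = 0.209). Ndufaf2, a late chaperone that Ndufa12 replaces, had 7.08, 8.86 and 11.9 FPKM with Ang II against 8.5, 10.5 and 14.6 FPKM with saline (log2 fold change -0.23, limma adjusted p = 0.154), and 65.6% of its exon bases overlap B230220B15Rik. Ndufaf6, needed early in assembly, had 2.96, 6.63 and 9.07 FPKM with Ang II against 6.18, 8.41 and 13.7 FPKM with saline (log2 fold change -0.43, SE 0.18, limma adjusted p = 0.0715), and it passed when Ang II 1 or Saline 1 was left out. The groups overlapped in each of these genes.

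The 2 genes that carry the name but lie outside complex I did not pass. Ndufa4, a subunit of complex IV, had 130.0, 149.6 and 193 FPKM with Ang II against 81.0, 169 and 216 FPKM with saline (log2 fold change -0.04, SE 0.17, limma adjusted p = 0.865). Ndufa4l2, its hypoxia-induced relative, was the least abundant member, with 0.0651, 0.343 and 1.98 FPKM with Ang II against 0.444, 0.794 and 2.45 FPKM with saline (log2 fold change -0.36, SE 0.24, limma adjusted p = 0.246). Adding 1 FPKM before taking logs compresses changes at so low a level: with 0.1 FPKM added the log2 fold change was -1.02 (limma adjusted p = 0.145), and voom on recovered reads gave -1.25 (limma adjusted p = 0.107).

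The membrane-arm core subunits come from the mitochondrial genome. Of the 7 mt-Nd genes none passed the test, and their log2 fold changes ran from -0.08 for mt-Nd3 to 1.01 for mt-Nd4l. Saline 7 and Saline 8 held only 5.65 and 4.97 FPKM of mt-Nd4l, against 33.5 to 74.2 FPKM in the other saline libraries, and without the pair its log2 fold change was 0.26 (limma adjusted p = 0.494). mt-Nd1, the subunit at the quinone tunnel, had 7346, 12432 and 26121 FPKM with Ang II against 7133, 10848 and 15888 FPKM with saline (log2 fold change 0.21, limma adjusted p = 0.53). mt-Nd2, mt-Nd4 and mt-Nd5 are the proton-pumping subunits. Of these mt-Nd5 had 3280, 4641 and 9079 FPKM with Ang II against 848, 3437 and 5399 FPKM with saline (log2 fold change 0.90, SE 0.36, limma adjusted p = 0.065), and it was called higher after centring and after median ratio scaling. Here too Saline 7 and Saline 8 were the lowest, at 850 and 848 FPKM, and without them the log2 fold change was 0.36 (limma adjusted p = 0.208). The log2 fold change was 0.25 for mt-Nd2 (limma adjusted p = 0.415), 0.17 for mt-Nd4 (limma adjusted p = 0.661) and 1.01 for mt-Nd4l (SE 0.50, limma adjusted p = 0.127). mt-Nd6, the one subunit encoded on the light strand, did not pass either (0.45 on the log2 scale, limma adjusted p = 0.198), although with GC and length trends removed it was called higher (0.58, limma adjusted p = 0.0478). It overlaps transcripts of the heavy strand, whose reads cannot be separated where counting by strand is not stated.

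Summed over its members, the nuclear group held 2331, 2637 and 3165 FPKM as lowest, median and highest value in Ang II aortas, against 3041, 3654 and 5108 FPKM in saline aortas. The mt-Nd sum was 22974, 37101 and 75172 FPKM with Ang II, against 20926, 28937 and 44657 FPKM with saline. Within a library the mt-Nd sum was 9.36 to 23.7 times the nuclear sum with Ang II (median 14.4) and 5.75 to 14.2 times with saline (median 7.44). The ratio overlapped between the groups, since Saline 2 and Saline 4 stood at 13.0 and 14.2, and the highest value was that of Ang II 1. No test was made of these sums.

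**Figure D4:**
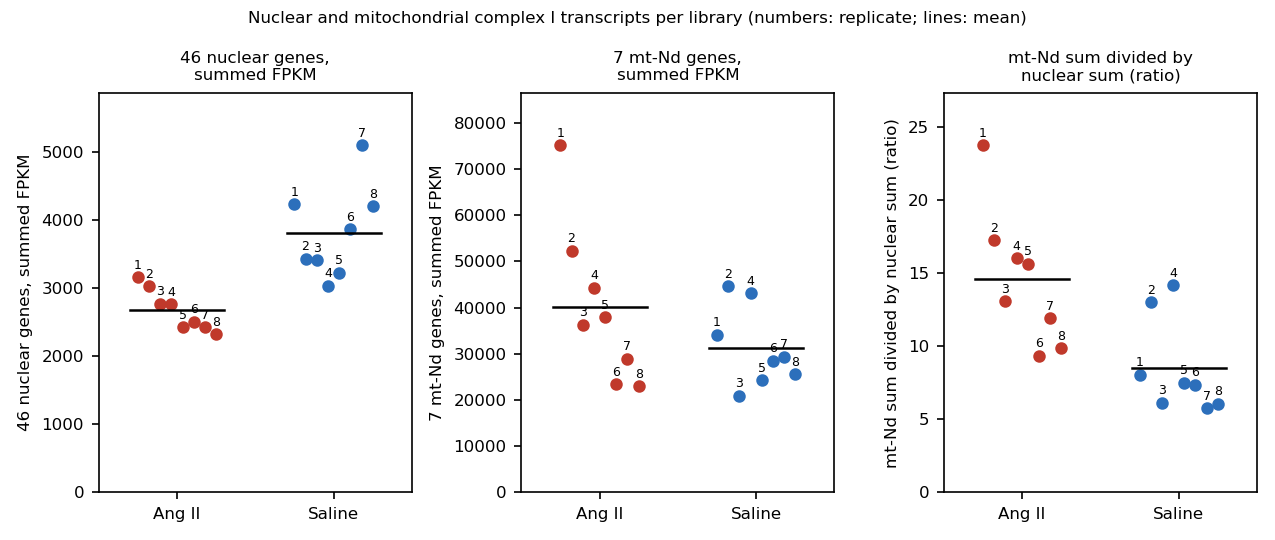
Summed FPKM of the 46 nuclear genes, summed FPKM of the 7 mt-Nd genes, and their ratio, by library, with Ang II left of saline, replicate numbers beside the points and lines at the group means. The nuclear sums lie at 2331 to 3165 with Ang II and 3041 to 5108 with saline, with Ang II 1 just above the lowest saline library.

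Other genes of the same pathway, from lists chosen with earlier results of these data known, gave the following counts beside the background of 24.9% lower. Of 11 complex I assembly factors with other names 4 fell (Ecsit, Dmac2, Dmac1 and Foxred1; median -0.15). Ecsit, a partner of Ndufaf1, had 12.6, 13.8 and 15.8 FPKM with Ang II against 18.7, 24.2 and 53.4 FPKM with saline, with no overlap (log2 fold change -0.93, SE 0.18, limma adjusted p = 0.000788). Dmac1 and Dmac2, which act on the distal membrane arm, fell by 0.53 and 0.87 on the log2 scale. Of 13 genes of ubiquinone synthesis, which supply the electron acceptor of complex I, 8 fell and 1 rose (median -0.54). Coq5 fell to 10.6 ± 0.87 FPKM with Ang II, against 17.7 ± 3.42 FPKM with saline (SD, n = 8 each; log2 fold change -0.67), and Coq2, which attaches the isoprenoid tail, fell by 0.66. Coq10a and Coq10b, both encoding proteins that bind ubiquinone, moved apart: Coq10a fell by 0.80, whereas for Coq10b all 8 Ang II values exceeded the highest saline value, beside 2.74% of all tested genes (log2 fold change 0.65, SE 0.13, limma adjusted p = 0.0011).

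Among 37 nuclear genes of complexes II to V, 19 fell and none rose (median -0.37). The share lower was 51.4% there and 65.2% among the complex I genes, a difference that was not tested and that depended on the libraries. Without Saline 2, Saline 6 and Saline 8, 23 of the 37 and 25 of the 46 were lower (medians -0.42 and -0.41, beside 19.2% of all tested genes). Without Saline 2, Saline 7 and Saline 8, 24 of the 37 and 27 of the 46 were lower (medians -0.37 and -0.36, beside 26.3%). After centring the counts were 9 of the 37 and 19 of the 46 (beside 14.3%). Cyc1, the cytochrome of complex III, fell to 84.8 ± 7.24 FPKM with Ang II, against 152 ± 47.2 FPKM with saline (SD, n = 8 each), and Cox4i1 of complex IV and Uqcrc1 of complex III fell by 0.65 and 0.60 on the log2 scale. Of 14 general mitochondrial genes 4 fell (median -0.14), namely Tomm40, Tomm22, Phb and Phb2, none of which stayed lower after centring or median ratio scaling. Under both of these settings 1 of the 14, Timm23, was called higher (log2 fold change 0.66 after centring, limma adjusted p = 0.0187, against 0.55 and 0.0512 as deposited). Of 13 regulators of mitochondrial biogenesis 5 fell. Among them Ppargc1b, a coactivator of respiratory genes, fell to 0.49 ± 0.197 FPKM with Ang II, against 1.26 ± 0.302 FPKM with saline (SD, n = 8 each; log2 fold change -0.60, SE 0.12, limma adjusted p = 0.00087). Perm1, known as a target of such coactivators in muscle, fell by 0.76, Polrmt, the mitochondrial RNA polymerase, by 0.54, and Nrf1 and Tfam both by 0.31, the call of Nrf1 being lost without Saline 7 and Saline 8. After centring 2 of these 5 (Ppargc1b and Perm1) were still called lower, as were 3 of the other-named assembly factors, 7 of the ubiquinone genes and 9 of the genes of complexes II to V.

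Spread and gene properties of the members are set beside those of all tested genes where these were taken. The SD of the log2 values was larger in saline than in Ang II aortas for 37 of the 46 genes (80.4%), near the 78.3% of all tested genes. The median coefficient of variation of the members was 14.5% in Ang II and 22.0% in saline aortas, with no value over all genes taken. Across the 46 genes the log2 fold change went with GC content at a Spearman correlation of -0.51, against -0.28 over 14995 tested genes. These points share the same 16 libraries, including Saline 7 and Saline 8, and the part of the GC trend in the calls was not tested beyond the fit that removed it. The genes are short, with a median transcript length of 805 bases against 1628 bases over all tested genes, and length and level went with the log2 fold change at 0.19 and -0.27. Near-identical copies (at least 95% over at least 200 bases) exist elsewhere in the transcriptome for 8 of the 46, and of these copies only BC002163, a copy of Ndufs5, exceeded 0.5 FPKM. Besides the overlaps already named, more than 10% of the exon bases of Ndufa13, Ndufb11, Ndufb5 and Ndufa2 lie in another gene.

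**Figure D5:**
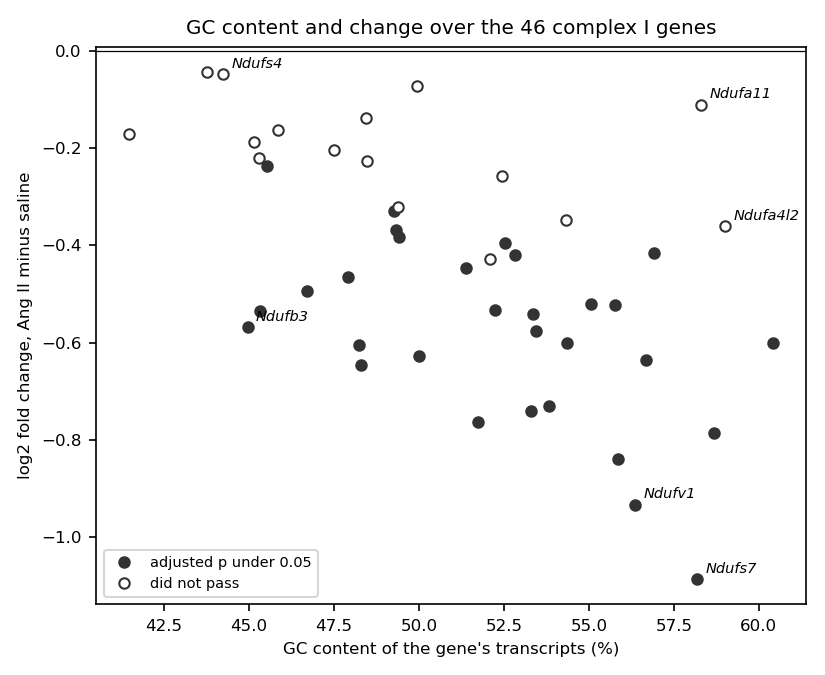
Log2 fold change (Ang II minus saline) against GC content of the transcripts for the 46 genes, with filled points for genes that passed the test. The values go down with GC content (Spearman -0.51 over 46 genes), from Ndufs4 near 0 to Ndufs7 at -1.09, and Ndufa11 is set apart at 58.3% GC and -0.11.

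Markers of wall and neighbouring cells are set beside the 24.9% of all tested genes called lower and 9.54% called higher. The share lower was 28.6% for brown adipocyte, 23.1% for pan-adipocyte, 25% for endothelial and 20% for cardiac markers, all near that background. It was 50% for smooth muscle markers. The median log2 fold change was -1.18 for brown adipocyte (6 of 7 below 0) and -0.99 for pan-adipocyte markers (12 of 13 below 0). Over all tested genes it was -0.12, and for endothelial, cardiac and smooth muscle markers -0.01, -0.095 and -0.46. Without Saline 2, Saline 6 and Saline 8 the brown and pan-adipocyte medians were -0.15 and -0.13. Smooth muscle markers were called lower for 5 of 10, led by Des, Actg2 and Myh11, the smooth muscle myosin (852 ± 169 FPKM with Ang II and 1561 ± 275 FPKM with saline, SD, n = 8 each). Brown adipocyte markers, from a cell type rich in complex I that surrounds the aorta, were called lower for 2 of 7 tested (Cidea by -1.38 and Cox7a1 by -1.43 on the log2 scale). Their sum was 13.2 to 38.0 FPKM in Ang II and 19.5 to 225 FPKM in saline aortas, highest in Saline 8, Saline 2 and Saline 6. Without these 3 libraries 25 of the 46 complex I genes were called lower (19.2% of all tested genes), and the median was -0.41. The sum of 14 pan-adipocyte markers was 74.1 to 251 FPKM with Ang II and 97.5 to 537 FPKM with saline, and 3 of the 13 tested were called lower (Pnpla2, Fabp4 and Lipe). Macrophage markers were called higher for 3 of 10 (Adgre1, Csf1r and Itgam). All 10 had log2 fold changes above 0, from 0.50 upward, with a median of 1.06. The sum of the macrophage markers was 64.1 to 689 FPKM with Ang II (median 230) and 21.6 to 644 FPKM with saline (median 61.7), so the groups overlapped. Skeletal muscle markers were called for 0 of 6 tested in either direction, and cardiac markers were lower for 1 of 5 tested (Tnni3). Summed over all listed markers, skeletal muscle had 5.15 to 65.8 FPKM with Ang II and 9.05 to 70.2 FPKM with saline. The cardiac sum was 23.1 to 59.2 FPKM with Ang II and 35.0 to 71.0 FPKM with saline. Endothelial markers were lower for 2 (Egfl7 and Pecam1) and higher for 1 (Erg) of 8. Fibroblast markers were lower for 1 (Col14a1) and higher for 1 (Col1a1) of 7. The endothelial sum was 207 to 1354 FPKM with Ang II and 572 to 1535 FPKM with saline. The fibroblast sum, which includes Col1a1 (log2 fold change 2.11), was 1522 to 3260 FPKM with Ang II and 371 to 627 FPKM with saline. The median log2 fold change of the 7 fibroblast markers was -0.12, with 4 of them below 0. No marker was at 0 in all libraries, and the calls of Cox7a1, Lipe, Itgam, Pecam1 and Erg were each lost in 1 or more of the fits that left out 1 library. The part that the mix of cells had in the complex I result was not tested beyond the fits given here.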

How the data were processed

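Per the labels' protocols, Trizol was used to take total RNA from 16 aortas, and libraries came from a SMARTER mRNA-seq kit. The deposited data are 1 table of FPKM values with gene lengths. The submitters' processing notes name the build GRCm38 (mm10), while aligner, counter and use of strand were not stated in the sources used. FPKM is relative, so a shift of abundant transcripts moves all others. Genes with a mean of at least 0.5 FPKM were fitted with limma 3.58.1 (R 4.3.3, intensity trend, two-sided) on log2(FPKM + 1), Ang II against saline with 8 libraries each, and Benjamini-Hochberg adjusted over all 15007 genes at 0.05. Fold changes on this scale understate those of low genes. The members, lists and tests were chosen with earlier results of these data known. The naming rule gave values for the members, in full for the 8 lowest and 6 highest log2 fold changes, the core subunits, the assembly factors and the 2 outside genes, and for up to 3 called genes in each direction of every other list. Genes named beyond this rule were chosen after their values were seen.

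GC content, length, overlaps and copies came from the GENCODE annotation and transcripts of GRCm38 (bedtools 2.31.1, blastn 2.17.0), which hold 99.8% of the table's IDs. Depth came from multiplying FPKM by length, so that 1 read has a fixed worth in each library. Ratio tests used scipy 1.17.1. Each library was taken as 1 mouse, as the series text counts 8 mice per group, and p-values measure the spread between these libraries. Alternatives were other pseudocounts, filters, scalings, tests, covariates, trends removed and libraries left out. Those added after seeing the data were voom on recovered reads, rescaling to nuclear reads, the 4 fits without sets of saline libraries, and the ratios. Values of 1 member and of 1 marker list are not reported here, and that member is left out of the ratios and of the plots by gene, though counts over the members include it.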

Additional observations from a re-analysis of the deposited data

Results flagged for a closer look

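In 106 groups of 8 values (each member and mt-Nd gene in each group) a library was checked for lying far from the others, which chance alone does in about 1 of 20 groups, and 4 values were found. Ndufv1 in Saline 8 was 268.647 FPKM, with the nearest saline library at 163.521 FPKM. Without Saline 7 and Saline 8 the log2 fold change of this gene was -0.74 (limma adjusted p = 5.03e-05). Ndufaf6 in Saline 8 was 13.7453 FPKM, with the nearest at 9.64845 FPKM, and this gene did not pass the test. Ndufb4 in Ang II 1 was 29.9605 FPKM, with the nearest Ang II library at 22.599 FPKM. mt-Nd2 in Ang II 1 was 15446.3 FPKM, with the nearest at 9889.49 FPKM, and 19.7% of the reads of this library came from the mitochondrial genome, against 6.26% to 14.0% in the other Ang II libraries.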

How the results depend on the processing

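Whether the replicate numbers pair the libraries was not settled. Correlations of same-numbered deviations were -0.25 to 0.39, and 3 of 8 pairs matched best. The libraries were fitted as unpaired, and 29 members were called lower in a fit with the replicate block. Leaving out 1 library at a time gave 29 to 31 calls, and voom on the recovered reads gave 29.

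Counts that moved by over 1.5 times were as follows, lower first. With the GC and length trends removed 18 members were lower and 1 higher, and 2156 genes were higher in all; with the block added 15 members and 2467 genes were lower. Centring gave 19 members lower and 2146 genes lower and 2245 higher, median ratio scaling 16, 2113 and 2235, and quantile normalization 19, 2374 and 2270, beside 3741 and 1431 for the values as deposited. The brown adipocyte score as a covariate gave 2171 and 886 genes, with 23 members lower, and the pan-adipocyte score 2310 and 901, with 22. Without Saline 7 and Saline 8 and with centring 12 members and 1851 genes were lower, with a member median of -0.21. Centring, median ratio scaling, quantile normalization and trend removal moved the median of all tested genes from -0.12 to between -0.04 and -0.01.

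Changes of sign were found only in genes and ratios that had not passed the test. With GC and length trends removed, with or without the block, log2 fold changes were 0.302 for Ndufa11, 0.029 for Ndufa4, 0.0389 for Ndufa4l2, 0.12 for Ndufb6, 0.00441 for Ndufs4 and 0.0798 for mt-Nd3. After centring they were 0.064 for Ndufa4, 0.0364 for Ndufb6, 0.0606 for Ndufs4 and 0.0244 for mt-Nd3. Median ratio scaling gave 0.0319 for Ndufa11, 0.0989 for Ndufa4, 0.00188 for Ndufa9, 0.0700 for Ndufb6, 0.0926 for Ndufs4 and 0.0586 for mt-Nd3. Quantile normalization gave 0.0185 for Ndufa1, 0.122 for Ndufa11, 0.18 for Ndufa4, 0.0237 for Ndufa9, 0.111 for Ndufb6, 0.00259 for Ndufs1, 0.123 for Ndufs4, -0.147 for mt-Nd1 and 0.106 for mt-Nd3. Rescaling to nuclear reads gave 0.00208 for Ndufa4, the brown adipocyte score 0.049 for mt-Nd3, and the pan-adipocyte score 0.0561 for Ndufa11. Without Saline 7 and Saline 8 the values were 0.0195 for Ndufa11 and 0.0938 for Ndufv2 over Ndufs1 (a ratio), and with centring too 0.00215 for Ndufa1, 0.176 for Ndufa11, 0.0353 for Ndufa4, 0.101 for Ndufaf4, 0.131 for Ndufs4 and 0.00475 for Ndufv2. Without Saline 2, Saline 7 and Saline 8 they were 0.0257 for Ndufa11, 0.00776 for Ndufaf4 and 0.151 for Ndufv2 over Ndufs1. Without Saline 2, Saline 6 and Saline 8 the log2 ratio difference was 0.00929 for Ndufv2 over Ndufs1. Leaving out 1 library at a time gave -0.275 to 0.0133 for Ndufa1, -0.177 to 0.0232 for Ndufa4, -0.0993 to 0.00477 for Ndufs4, -0.218 to 0.0848 for mt-Nd3 and -0.118 to 0.0319 for Ndufv2 over Ndufs1. The cause of these changes was not tested. The least abundant member had 1 read in its lowest library, so depth limits Ndufa4l2 most.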
